A study of Mus musculus with 6 samples.

Results

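The 42 genes described here encode actin, the proteins that assemble, cap, sever and cross-link actin filaments, and the proteins that tie filaments to the membrane and to adhesion sites. They were taken by gene symbol from a table of 17890 genes, and all 42 were found and passed the filter on low counts, which kept 12706 genes. Bulk RNA-seq libraries came from mouse mast cells of lymph nodes, 3 of them from uninvolved nodes (uLN) and 3 from nodes holding metastases (mLN). Strain, age, tumour and the way the cells were isolated are not given in the labels, and nothing in the labels says that the replicates came from separate animals. The comparison, mLN against uLN, asks how the transcripts of the actin machinery in lymph-node mast cells differ where a tumour has spread.

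Actin exists as monomers and as filaments. Profilin and the beta-thymosins hold monomers, the Arp2/3 complex starts branched filaments when WASP proteins switch it on, formins start straight ones, and cofilin and gelsolin take filaments apart. In mast cells a dense actin cortex lies under the membrane, where it is reorganised during adhesion, migration and granule release after IgE receptor crosslinking.

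The libraries held 17643879 to 17799365 rounded counts each. Mast cell markers (Kit, Fcer1a, Ms4a2, Cpa3, Tpsb2, Mcpt4, Cma1, Hdc) were abundant in all 6, with a summed level of 34418 to 36134 CPM (counts scaled to a common library size) in uLN and 32419 to 35083 CPM in mLN. Of these 8 markers, 3 were called higher in mLN and 5 lower by the test given below, beside 33.2% and 34.2% of all tested genes. Markers of other cells were far lower. Keratinocyte markers summed to 17.5 to 30.2 CPM in uLN and 25.8 to 183 CPM in mLN, and fibroblast markers to 5.11 to 17.5 and 14.8 to 132 CPM, with both highest in mLN replicate 1. Macrophage markers summed to 135 to 181 CPM in uLN and 214 to 245 CPM in mLN, and dendritic cell markers to 10.1 to 11.5 and 21.4 to 23.7 CPM. The rise of the macrophage sum was not shared by most of its list, as 2 of 7 tested macrophage markers were called higher and 4 lower. Endothelial markers summed to 947 to 994 CPM in uLN and 766 to 814 CPM in mLN. None of these lists had a member at 0 in all libraries, and their part in the results below was not tested. In mLN replicate 3 the counts differed from those of the other mLN libraries by more than those 2 differed from each other (median chi-square per gene of 2.58 and 2.48 against 0.736).

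In mLN both cytoplasmic actin genes fell, together with profilin, coronin 1A, the Arp2/3 subunit Arpc1b and the activator Was. Vinculin, thymosin beta 4 and the WASP relative Wasl rose. Over the 42 genes, 11 rose and 23 fell at an adjusted p under 0.05 (edgeR quasi-likelihood fit, Benjamini-Hochberg over all tested genes), and 8 were not called. Among all tested genes 33.2% rose and 34.2% fell, 67.4% together, against 81.0% of the actin genes. The excess lay in falls, which made up 54.8% of the actin genes, and the difference in shares was not tested. Their median log2 fold change was -0.15, against -0.006 for all tested genes. Changes were mostly small. Of the 42 genes, 3 rose and 7 fell by at least 1.5-fold (23.8%), where 32.5% of all tested genes did, and the median size of change was 0.31 on the log2 scale against 0.40. The median member lay at percentile 93.0 of all tested genes by mean CPM, and only Actn1 and Fscn1 were under 10 CPM. With the coefficient of variation between libraries set to 0.2, 3 members were called higher and 7 lower, beside 2145 and 1913 of the 12706 tested genes. Tested against a fold of 1.2, 5 members were called higher and 13 lower, beside 2932 and 2924 of the tested genes. The summed level of the 42 genes was 19313 to 19547 CPM in uLN and 15897 to 16391 CPM in mLN. Most of that drop lay in Actb and Actg1, which together held 4888 to 5135 CPM in uLN and 2128 to 2738 CPM in mLN.

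The groups did not overlap for 36 of the 42 genes (85.7%, against 72.9% of all tested genes). Of the 34 called genes, 22 lay farthest from uLN in mLN replicate 3 among the mLN libraries, a share that was 61.9% among all called genes. The counts were 13 higher and 23 lower without that library, and 9 higher and 21 lower without mLN replicate 1. Over the other leave-outs they ran from 8 to 10 higher and 21 to 22 lower, with 8 higher without each of uLN replicates 2 and 3.

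**Figure D1:**
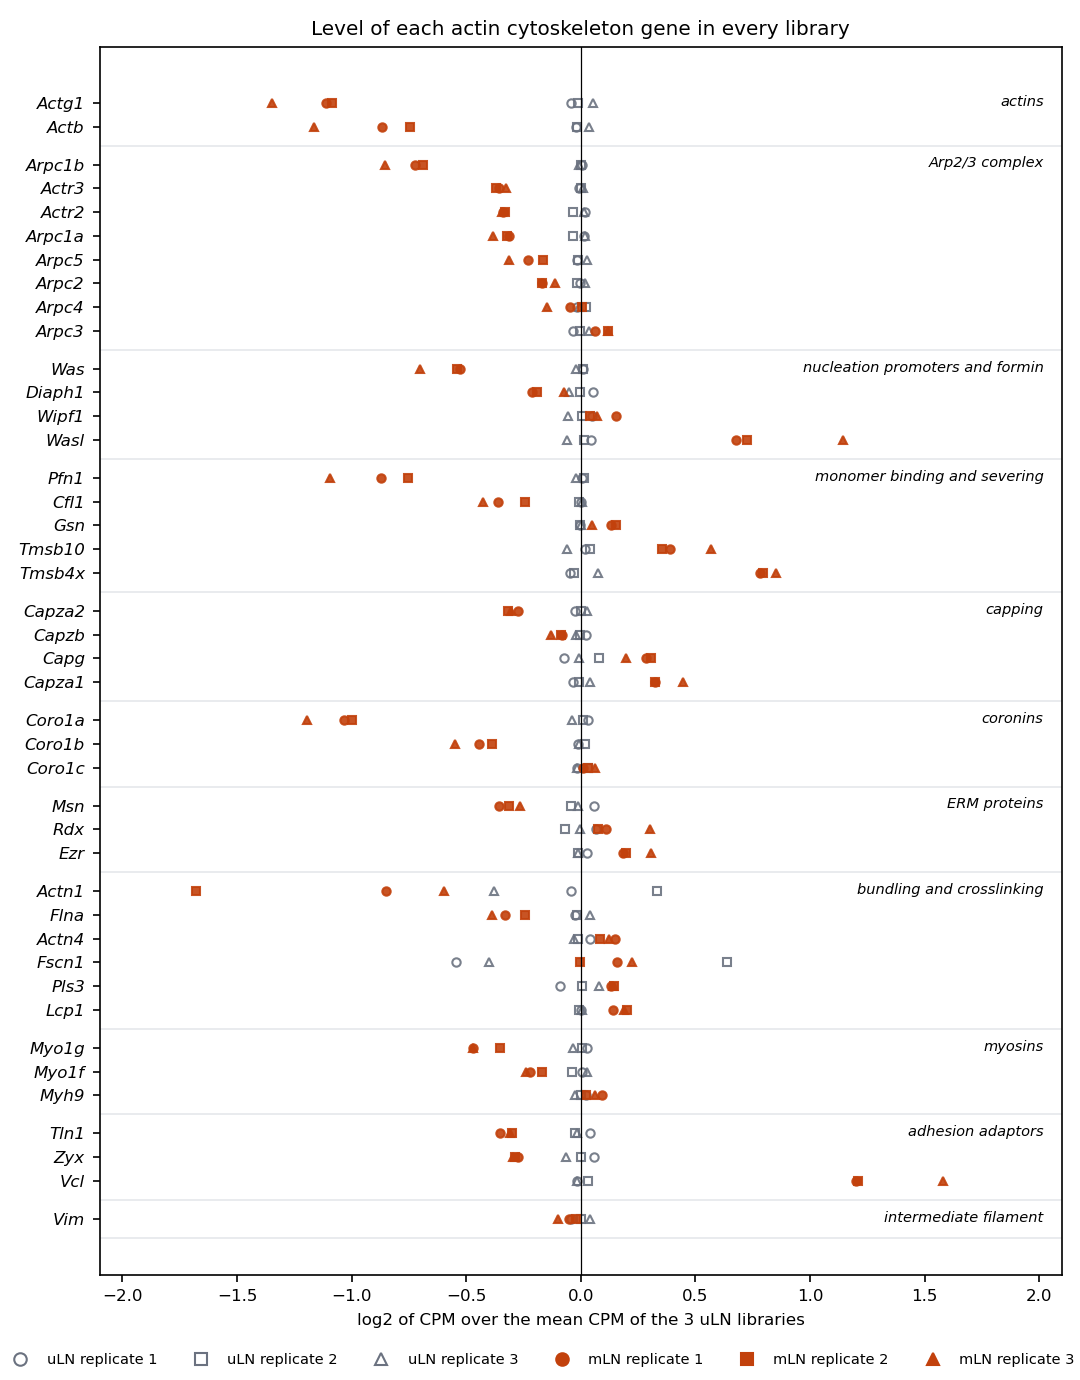
Level of each of the 42 genes in each library, as log2 of its CPM over the mean CPM of the 3 uLN libraries, grouped by role. Open grey symbols are uLN and filled orange symbols mLN, with 1 symbol shape per replicate number. The actins, Pfn1, Coro1a and Arpc1b lie to the left and Vcl, Wasl and Tmsb4x to the right of all uLN libraries.

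Actb, the gene of beta-actin, was the most abundant of the 42 per length in both groups. It stood at 3062, 3068 and 3183 CPM in uLN and at 1700, 1853 and 1387 CPM in mLN, where replicate 3 was lowest and no library reached the uLN range. Its mean went from 3104 ± 68.6 to 1647 ± 237 CPM (SD, n = 3), a log2 change of -0.91 ± 0.09 (SE; adjusted p = 5.84e-06). In GRCm38, Actb (gene ID 11461) spans chromosome 5 positions 142903115 to 142907976. Actg1, the gene of gamma-actin (gene ID 11465, chromosome 11 from 120345687 to 120348495), fell further, from 1826, 1864 and 1952 CPM to 871, 885 and 740 CPM. The log2 change was -1.18 ± 0.07 (SE; adjusted p = 1.53e-07). Together the 2 transcripts went from 4888 to 5135 CPM in the uLN libraries to 2128 to 2738 CPM in the mLN libraries.

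The 2 actin genes are close copies, so part of their reads could be assigned to either, and their deposited counts are not whole numbers. Their coding sequences are both 1128 bases long and identical at 1000 positions (88.7%). The first 60 coding bases show the pattern, with capitals marking the 9 bases that differ (GENCODE M21, GRCm38, both genes on the minus strand).
Actb: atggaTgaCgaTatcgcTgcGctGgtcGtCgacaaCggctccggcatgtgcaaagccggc
Actg1: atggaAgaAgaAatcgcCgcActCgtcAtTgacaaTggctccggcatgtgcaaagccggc
Differences are spread along the coding sequence, and 1.58% of the 50-base windows of the Actg1 transcript also occur in that of Actb. The ratio of Actb to Actg1 reads was 1.68, 1.65 and 1.63 in uLN and 1.95, 2.09 and 1.87 in mLN.

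Vcl encodes vinculin, which links integrin adhesions and cell junctions to actin, and had the largest rise of the 42 genes. Its level was 199, 206 and 199 CPM in uLN and 463, 466 and 602 CPM in mLN, highest in mLN replicate 3. The log2 change was 1.34 ± 0.09 (SE; adjusted p = 5.65e-07), a 2.53-fold rise, and it ranked 34 of 42 per length in uLN and 19 in mLN. Vcl (gene ID 22330) spans chromosome 14 positions 20929383 to 21033676 in RefSeq. In GENCODE M21, 39.7% of its exon bases overlap exons of Ap3m1 on the opposite strand. By RefSeq positions the overlap is smaller and lies at the end of Vcl, as Ap3m1 spans 21033106 to 21052553. The labels do not state which gene models were counted or whether counting used strand, so reads there cannot be told apart. Ap3m1 stood at 104 ± 0.718 CPM in uLN and 121 ± 5.57 CPM in mLN (SD, n = 3). The other adhesion adaptors, in contrast, fell. Tln1, which encodes talin, the activator of integrins, went from 1597, 1529 and 1540 CPM to 1219, 1265 and 1257 CPM, and Zyx, which encodes zyxin of mature adhesions, from 632, 609 and 582 CPM to 503, 498 and 495 CPM. The groups were apart for each gene, and the log2 changes were -0.32 and -0.29. Epha1, opposite to 5.94% of the exon bases of Zyx, had 1.18 ± 0.107 CPM in uLN and 5.34 ± 0.865 CPM in mLN (SD, n = 3).

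Serum response factor (SRF) with its cofactors of the MRTF family is known to control many actin genes, and the cofactors are held in check by actin monomers. Its element, the CArG box, was searched on both strands in the RefSeq promoter windows of GRCm38.p6, from 250 bases before to 50 bases after each gene start. Actb, Coro1b and Diaph1 were not searched. A match was found for 3 of the other 39 members (7.69%), Actg1, Vcl and Arpc4, and for 1.81% of 27025 genes. Those of Actg1 and Vcl are shown because one gene fell and the other rose most, with the box in capitals.
Actg1, chr11:120348551-120348610, minus strand: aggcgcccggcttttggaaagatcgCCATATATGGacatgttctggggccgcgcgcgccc
Vcl, chr14:20929148-20929205, plus strand: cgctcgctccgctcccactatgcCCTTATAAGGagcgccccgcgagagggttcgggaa
The box of Actg1 begins 90 bases and that of Vcl 227 bases before the annotated start of its window. For Vcl that start differs from the first RefSeq position of the gene given above. Arpc4, whose box lies at the far end of its window, was not called. A match is a description of the letters and not a bound site.

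On the list of SRF and MRTF factors and targets, 7 of the 12 genes in the table passed the filter. Of these 2 rose and 5 fell, with a median log2 change of -0.40, where 33.2% of all tested genes rose and 34.2% fell. The list's difference from all genes was not tested, and with the coefficient of variation set to 0.2 its counts were 2 and 3. The cofactor Mkl1 (MRTF-A) fell from 231 ± 7.76 to 134 ± 7.71 CPM (SD, n = 3). Srf and Mkl2 (MRTF-B), named after their values were seen, fell by 0.32 and 0.40 on the log2 scale. The immediate early genes Fos and Egr1, the latter also named afterwards, fell 3.78-fold and 3.58-fold. The tropomyosin Tpm1 and the target Fhl2 moved the other way, from 93.0 ± 2.63 to 149 ± 15.6 CPM and from 1.71 ± 0.158 to 5.30 ± 0.477 CPM (SD, n = 3). Smooth muscle and pericyte markers summed to 16.7 to 19.7 CPM in uLN and 6.67 to 10.2 CPM in mLN. Those also on the list of SRF targets (Acta2, Cnn1 and Tagln) did not pass the filter and are not among the 7 genes. The part of such cells in the levels of the 7 genes was not tested.

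Among monomer-binding genes the directions were opposite. Pfn1, on chromosome 11 from 70651844 to 70656799, encodes profilin, which feeds monomers to growing filament ends. It went from 590, 593 and 579 CPM in uLN to 321, 348 and 275 CPM in mLN, lowest in replicate 3, a log2 change of -0.90 ± 0.07 (SE; adjusted p = 1.98e-06). Tmsb4x, on chromosome X from 167207093 to 167213479, encodes thymosin beta 4, which sequesters monomers. It rose from 605, 613 and 659 CPM to 1075, 1085 and 1129 CPM, a log2 change of 0.81 ± 0.05 (SE; adjusted p = 1.75e-07), and neither gene's groups overlapped. Per length Tmsb4x ranked 4 of 42 in uLN and 2 in mLN, while Pfn1 went from rank 3 to 5. Tmsb10, the related thymosin beta 10, rose less, from 118, 120 and 112 CPM to 153, 149 and 173 CPM (1.36-fold). The coding sequences of the 2 thymosins are shown whole because both rose and they are short enough to compare, with capitals at the 40 of 135 bases that differ (GENCODE M21, GRCm38, minus strand).
Tmsb4x: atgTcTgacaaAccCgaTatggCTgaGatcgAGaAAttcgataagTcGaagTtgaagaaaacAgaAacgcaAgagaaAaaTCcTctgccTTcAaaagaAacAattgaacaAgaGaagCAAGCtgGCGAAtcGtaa
Tmsb10: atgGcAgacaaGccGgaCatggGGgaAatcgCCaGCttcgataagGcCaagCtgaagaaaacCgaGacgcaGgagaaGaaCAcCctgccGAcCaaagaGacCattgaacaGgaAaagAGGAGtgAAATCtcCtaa
The 2 transcripts share no 50-base window, and their deposited counts were whole numbers.

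Of the severing proteins, Cfl1, which encodes cofilin, fell from 581, 579 and 584 CPM to 452, 491 and 432 CPM (1.27-fold). In GENCODE M21, though not by RefSeq positions, Snx32 on the opposite strand overlaps 18.7% of the exon bases of Cfl1. Snx32 had 42.7 ± 0.774 CPM in uLN and 54.2 ± 4.68 CPM in mLN (SD, n = 3). Gsn, which encodes gelsolin, had 305, 305 and 306 CPM in uLN and 335, 340 and 316 CPM in mLN. Its rise of 0.11 on the log2 scale (adjusted p = 0.0376) was no longer called without each of 5 libraries (adjusted p from 0.0989 to 0.125), with mLN replicate 3 the exception, nor with the replicate block (adjusted p = 0.0617) or when all genes with a read were tested (adjusted p = 0.141).

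**Figure D2:**
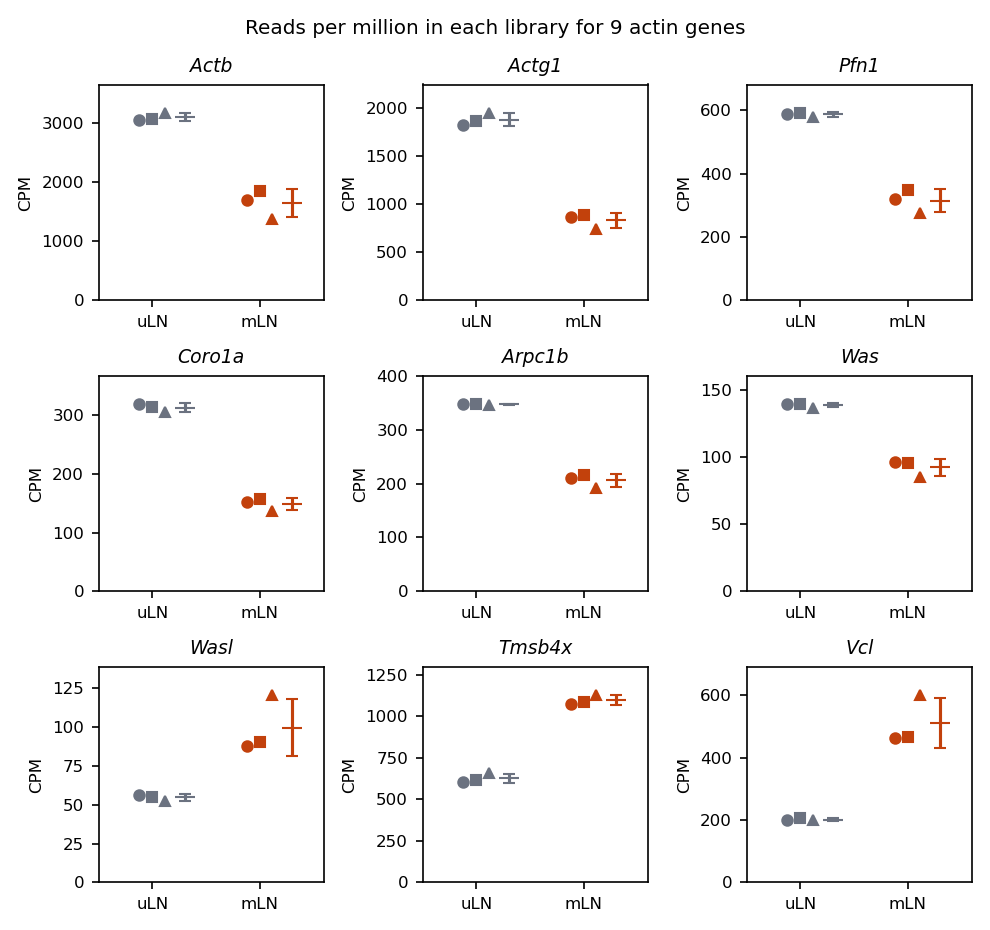
CPM of the 9 genes called under all 14 alternative settings, in each library, with the vertical axis from 0. Symbols mark replicates 1 (circle), 2 (square) and 3 (triangle), and the bars give the mean and SD of 3 libraries. Actb, Actg1, Pfn1, Coro1a, Arpc1b and Was are lower in mLN, Wasl, Tmsb4x and Vcl higher, and mLN replicate 3 lies farthest from uLN in each panel.

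Of the 8 genes of the Arp2/3 complex, 6 fell and none rose, with a median log2 change of -0.29, where 34.2% of all tested genes fell and 33.2% rose. The difference from all genes was not tested. With the coefficient of variation set to 0.2, only Arpc1b was still called, and Actr2, Actr3, Arpc1a, Arpc2 and Arpc5 were not (adjusted p from 0.268 to 0.680). The subunit ARPC1 comes in 2 forms, and the genes of both fell, Arpc1b more. Arpc1b spans chromosome 5 positions 145114256 to 145128186. Arpc1b, the form that predominates in blood cells, went from 348, 347 and 345 CPM to 210, 215 and 192 CPM, a log2 change of -0.75 ± 0.05 (SE; adjusted p = 4.21e-07). In GENCODE M21, exons of Pdap1 on the opposite strand overlap 29.9% of the exon bases of Arpc1b. By RefSeq positions the 2 genes do not overlap, as Pdap1 spans 145128770 to 145140025. Pdap1 had 44.8 ± 1.26 CPM in uLN and 41.2 ± 1.32 CPM in mLN (SD, n = 3). Arpc1a, the other form, fell 1.26-fold from 69.1 ± 1.33 CPM, and the ratio of Arpc1b to Arpc1a reads went from 4.92 to 5.12 in the uLN libraries to 3.63 to 3.88 in the mLN libraries. The core actin-related proteins Actr2 and Actr3 fell 1.26-fold and 1.27-fold, from 410 ± 8.60 and 159 ± 0.708 CPM (SD, n = 3). Arpc2 and Arpc5 fell less, by 1.11-fold and 1.18-fold. Arpc3 and Arpc4 were not called, with log2 changes of 0.10 and -0.06. Exons of Ttll3 overlap 12.2% of those of Arpc4, and Arpc3 was called higher under 3 other scalings (adjusted p from 0.0126 to 0.0369) and without mLN replicate 3 (adjusted p = 0.0235).

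The proteins that activate the complex split by gene. Was encodes WASP, the activator of blood cells, and fell from 140, 140 and 137 CPM to 96.5, 95.7 and 85.5 CPM, a log2 change of -0.59 ± 0.05 (SE; adjusted p = 5.14e-06). Wasl encodes N-WASP, its widely expressed relative, and rose from 56.5, 55.3 and 52.5 CPM to 87.6, 90.6 and 121 CPM, a log2 change of 0.86 ± 0.11 (SE; adjusted p = 4.89e-05). Replicate 3 of mLN was the extreme for both. Was spans positions 8081466 to 8090491 of chromosome X and Wasl 24613810 to 24664995 of chromosome 6. The ratio of Was to Wasl reads went from 2.47, 2.54 and 2.61 in uLN to 1.10, 1.06 and 0.706 in mLN, and was below 1 in mLN replicate 3 alone. Wipf1, the WASP-stabilising partner WIP, was not called (log2 change of 0.09), but was called higher without mLN replicate 3 (adjusted p = 0.0439). Diaph1, a formin, fell from 942 ± 34.0 to 844 ± 44.5 CPM (SD, n = 3), a call lost without uLN replicate 1 (adjusted p = 0.0712) and without mLN replicate 1 (adjusted p = 0.0617).

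Coro1a, the coronin of white blood cells that binds filaments and the Arp2/3 complex, fell most of the coronins. It spans chromosome 7 positions 126699774 to 126704816 and had 320, 315 and 305 CPM in uLN and 153, 157 and 137 CPM in mLN, a log2 change of -1.07 ± 0.06 (SE; adjusted p = 9.71e-08). The widely expressed Coro1b fell from 257 ± 3.50 to 187 ± 10.6 CPM (SD, n = 3), and Coro1c was not called, at 126 ± 2.15 and 129 ± 2.26 CPM. In GENCODE M21, though not by RefSeq positions, exons of Ptprcap overlap 22.9% of those of Coro1b on the same strand. Ptprcap had 22.5 ± 1.43 CPM in uLN and 15.7 ± 2.80 CPM in mLN. Ratios within a library do not depend on scaling between libraries, and Coro1a to Coro1b went from 1.19 to 1.26 in uLN to 0.778 to 0.807 in mLN.

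Capping proteins close the fast-growing filament end, and their genes moved by small amounts in both directions. The alpha subunits went apart: Capza1 rose from 193, 196 and 203 CPM to 247, 247 and 269 CPM, and Capza2 fell from 159, 162 and 165 CPM to 134, 130 and 131 CPM. In GENCODE M21, though not by RefSeq positions, exons of St7l overlap 5.20% of those of Capza1 on the opposite strand. The ratio of Capza1 to Capza2 reads was 1.21 to 1.22 in uLN and 1.85 to 2.05 in mLN. The shared beta subunit Capzb went from 439 ± 6.52 to 409 ± 7.45 CPM (SD, n = 3). That fall (adjusted p = 0.0458) was no longer called under 3 other scalings (adjusted p from 0.0699 to 0.134), in DESeq2 (adjusted p = 0.0581), with the replicate block (adjusted p = 0.0761) and without any library but mLN replicate 3 (adjusted p from 0.0563 to 0.134). Capg, a gelsolin relative that caps without severing, rose from 112 ± 5.94 to 134 ± 4.86 CPM (SD, n = 3).

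Ezrin, radixin and moesin tie the cortex to membrane proteins. Msn, which encodes moesin, was the most abundant of the 3 genes per length and fell from 1533, 1429 and 1460 CPM to 1151, 1185 and 1228 CPM (1.24-fold). Ezr rose 1.17-fold from 102 ± 1.37 CPM (SD, n = 3). Rdx rose by 0.17 on the log2 scale, with 165 CPM in its highest uLN library and 166 CPM in its lowest mLN library, and its call (adjusted p = 0.0421) was lost without uLN replicate 2 (adjusted p = 0.146), without uLN replicate 3 (adjusted p = 0.107) and when all genes with a read were tested (adjusted p = 0.0852). The ratio of Ezr to Msn reads was 0.0676 to 0.0707 in uLN and 0.0984 to 0.102 in mLN.

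Among bundling and cross-linking genes, Flna, which encodes filamin A, fell from 224 ± 5.79 to 179 ± 9.32 CPM, and Lcp1, the leukocyte plastin, rose from 670 ± 3.12 to 759 ± 16.1 CPM (SD, n = 3). The groups were apart for each gene. Actn4, an alpha-actinin, rose 1.09-fold, a call lost without mLN replicate 1 or uLN replicates 2 or 3 (adjusted p from 0.0928 to 0.124) and when all genes with a read were tested (adjusted p = 0.111). The related Actn1 was at 4.13, 5.36 and 3.27 CPM in uLN and 2.36, 1.33 and 2.81 CPM in mLN, and its fall of 0.97 on the log2 scale was not called without uLN replicate 2 (adjusted p = 0.0617). It rests on 72, 95 and 57 reads in uLN and 43, 24 and 49 in mLN, and 9.55% of its exon bases overlap an antisense gene. Pls3, the plastin of non-blood cells, had 20.4 ± 1.23 CPM in uLN and 22.4 ± 0.0627 CPM in mLN (SD, n = 3) and was not called. Fscn1, which encodes fascin of finger-like protrusions, had 10, 23 and 11 reads in uLN and 17, 15 and 17 in mLN, too few to show a difference of this size (log2 change of 0.13 ± 0.37 (SE); -0.09 without uLN replicate 1 and -0.05 without uLN replicate 3).

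Myh9, which encodes a non-muscle myosin heavy chain, was not called, with 1103, 1084 and 1066 CPM in uLN and 1155, 1102 and 1133 CPM in mLN. The single-headed myosins of blood cells, Myo1f and Myo1g, fell 1.16-fold and 1.35-fold, from 327 ± 7.61 and 145 ± 3.12 CPM (SD, n = 3). Vim, which encodes the intermediate filament protein vimentin, was not called, at 192 ± 5.22 CPM in uLN and 184 ± 5.06 CPM in mLN (SD, n = 3).

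For 12 pairs of related genes, the log2 read ratio within each library was compared between groups by a two-sided exact permutation test. The groups did not overlap for 11 pairs, each at an exact permutation p = 0.1, the smallest value that 3 against 3 libraries allow (0.109 adjusted over the pairs). Taken singly, 72.9% of all tested genes also did not overlap. Ratios of other gene pairs were not computed, so the count of pairs has no background of its own. The change of the ratio was largest for Was over Wasl, at -1.44, followed by Actn1 over Actn4 at -1.12, Capza1 over Capza2 at 0.66 and Coro1a over Coro1b at -0.62. Lcp1 over Pls3 overlapped (change of 0.04, exact permutation p = 0.6).

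**Figure D3:**
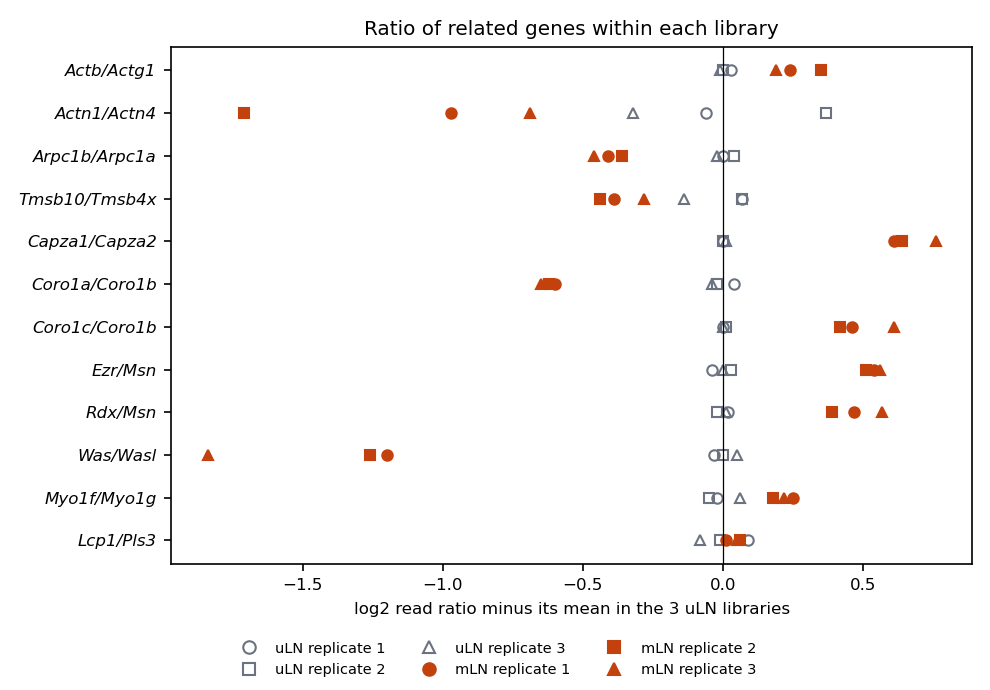
Log2 ratio of the reads of 2 related genes in each library, minus the mean of that ratio over the 3 uLN libraries, for 12 pairs. Open grey symbols are uLN and filled orange symbols mLN, and the groups are apart for all pairs but Lcp1/Pls3.

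Other genes of actin control were taken from lists that hold none of the 42. Among all tested genes 33.2% rose and 34.2% fell, with a median of -0.006, and no list's difference from these shares was tested. Of WAVE, WASP and WASH partners, 7 of 25 rose and 10 fell (median 0.02), or 2 and 3 with the coefficient of variation set to 0.2. Many, but not all, of them help to activate the Arp2/3 complex at the cell edge and on endosomes. Nckap1 and Abi3 of the WAVE complex fell 1.78-fold and 1.73-fold, Washc5 of the WASH complex fell 2.64-fold, and Hcls1, the blood cell form of cortactin, fell 1.38-fold. Of formins and other nucleators, 8 of 17 rose and 4 fell, or 2 in DESeq2 (median 0.04), and with that coefficient set 5 rose and 1 fell. The formins Fmnl3 and Inf2 rose 3.96-fold and 1.57-fold, the filament elongator Enah rose 1.57-fold and the nucleator Cobl fell from 657 ± 12.2 to 358 ± 2.62 CPM (SD, n = 3).

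In the list for disassembly, capping and monomer binding, 8 of 28 rose and 11 fell (median -0.12), with 5 rising without uLN replicate 3, and 2 rising and 5 falling with the coefficient of variation set to 0.2. Scin and Avil, relatives of gelsolin, fell from 1420 ± 47.5 to 667 ± 37.1 CPM and from 975 ± 12.9 to 567 ± 12.2 CPM (SD, n = 3). The membrane-bending protein Mtss1 fell 2.30-fold. Pfn2, the second profilin, rose 4.87-fold, from 5.76 ± 0.537 to 28.1 ± 1.58 CPM (SD, n = 3).

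Of myosins and light chains, 10 of 18 rose and 3 fell (median 0.26), beside 33.2% and 34.2% of all tested genes, or 5 and 0 with the coefficient of variation set to 0.2. Myo6, which walks toward the slow-growing filament end, rose 3.47-fold, Myo10 1.93-fold and Myo9a 1.41-fold, while the light chain Myl6 fell 1.37-fold. For crosslinkers, tropomyosins and adhesion adaptors, 11 of 28 rose and 13 fell (median -0.02), or 7 and 2 with that coefficient set. Tpm4, a tropomyosin, rose 5.87-fold to 19.5 ± 1.93 CPM (SD, n = 3) and Tagln2 rose from 339 ± 6.24 to 584 ± 13.1 CPM, while Plec, which encodes the linker plectin, fell 2.15-fold and Iqgap2 1.78-fold.

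**Figure D4:**
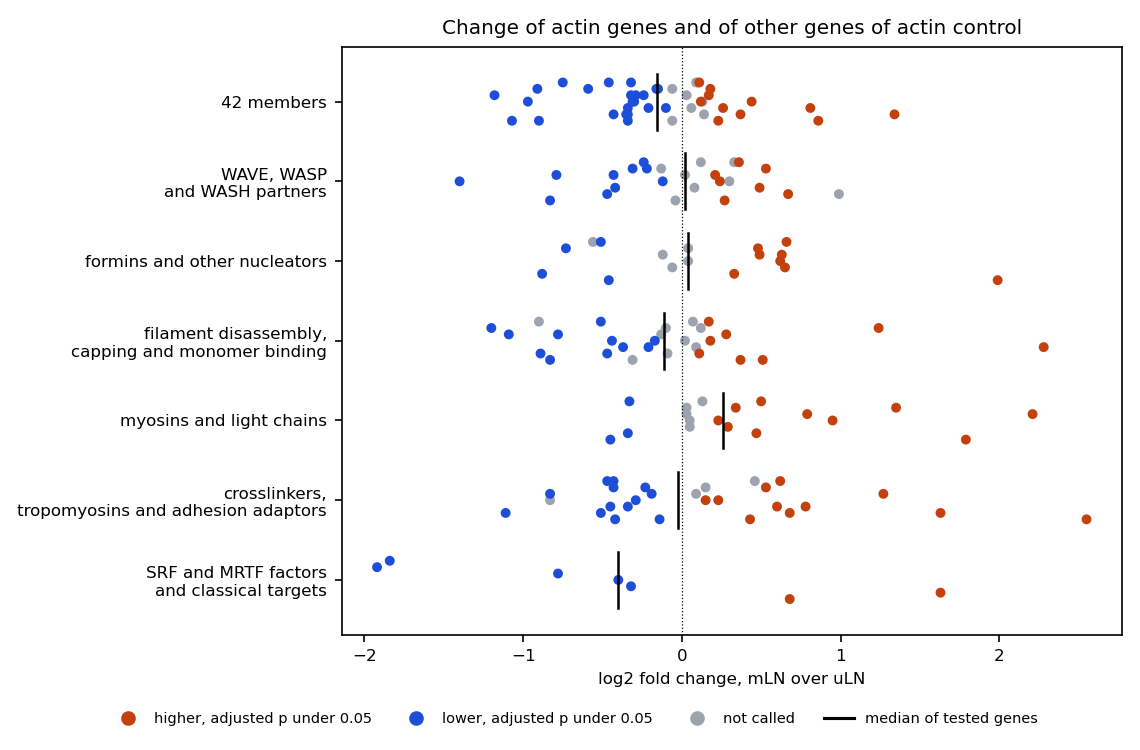
Log2 fold change in mLN over uLN of each tested gene in the 42-gene set and in 6 other lists of actin control, with 1 point per gene and the vertical bar at the median of the list. Orange points were called higher, blue lower and grey not called at an adjusted p under 0.05, and the largest rise is that of Tpm4 at 2.55.

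Across the 42 genes, the log2 fold change had a Spearman correlation of 0.16 with transcript length and of -0.16 with GC content, against 0.09 and -0.01 over 12411 tested genes. The difference of mLN replicate 3 from the other mLN libraries had larger correlations, 0.40 with length and -0.31 with GC content (0.19 and -0.20 over the tested genes). These are across genes that share libraries and serve as a description. In bulk RNA, fewer cells with a transcript and less transcript per cell cannot be told apart.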

How the data were processed

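Per the labels' protocols, total RNA was extracted with a Qiagen kit and made into DNBSEQ mRNA libraries. The submitters' processing notes name TopHat, cutadapt, FastQC and GRCm38 without versions or order, and name no counting tool or strand setting. What the authors deposited is a single table of estimated counts per gene (not normalised), with 32.2% to 32.8% of a library's values not whole. Of 17891 rows, 1 names no gene and was left out.

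The expected counts deposited by the authors were rounded and tested with edgeR 4.0.16 in R 4.3.3 (quasi-likelihood test, TMM, default filter, Benjamini-Hochberg over 12706 genes, called under 0.05). CPM are TMM-scaled, and the SE is the log2 fold change over the square root of F. Levels per length use exon lengths from GENCODE M21. Exon overlaps are also those of GENCODE M21, while gene positions come from RefSeq, so the overlaps can reach beyond the positions given. On data simulated for mLN against uLN with 12706 genes, the test recovered 50% of genes changed by a fold of 1.25, 78% of those changed by 1.5, 84% by 2 and 100% by 4, with 15 false among 171 calls. Ratios used reads plus 0.5 and scipy 1.17.1.

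All 42 members are named; of each other list, up to 4 called genes in order of adjusted p. The members and lists were chosen with earlier results of these data known. List entries not matched in the table were not analysed here, and 1 list of regulators is not reported here. Replicates were kept as separate samples, and p-values measure only the spread between them, which may be technical. Alternatives were 3 other scalings, no filter, DESeq2 1.42.0, a fixed coefficient of variation, a minimum fold, the replicate number as a block leaving out each library and, for ratios, adding 5 reads.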

Additional observations from a re-analysis of the deposited data

How the results depend on the processing

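With the coefficient of variation between libraries set to 0.2 for every gene, 3 members were higher and 7 lower, and 2145 and 1913 of all tested genes. Tested against a fold of 1.2, 5 members were higher and 13 lower, and 2932 and 2924 of all tested genes. The other scalings, the run with no filter and DESeq2 gave counts within 1.5 times of the main ones. Leaving out 1 library gave 8 to 13 members higher and 21 to 23 lower, and 3843 to 4403 of all genes higher and 4017 to 4492 lower. Under every one of the 14 alternatives, 9 members kept their call, 3 higher (Vcl, Tmsb4x and Wasl) and 6 lower (Actb, Actg1, Pfn1, Coro1a, Arpc1b and Was). In every leave-out 28 of the 34 called members kept theirs. The replicate block gave 10 members higher and 22 lower, and 4122 and 4263 of all genes; among members it ended the calls of Gsn and Capzb. The replicate numbers are not shown to pair the libraries, as deviations of equally numbered libraries correlated at 0.025, -0.155 and -0.013. The change of Lcp1 over Pls3 went from 0.04 to -0.00209 without uLN replicate 3, where its range over the leave-outs was -0.00209 to 0.08, and the log2 change of Fscn1 went from 0.13 to -0.09 and -0.05 without uLN replicates 1 and 3, with 0.60 the highest without a library. The causes of these shifts were not tested.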
